A study of Mus musculus with 38 samples.

Results

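The genes described here encode the proteins of the mitochondrial ribosome (symbols starting with Mrpl for the large subunit and Mrps for the small subunit) and of the machinery that carries proteins into mitochondria (Timm for the inner membrane and Tomm for the outer membrane). They were chosen by symbol, as the single-gene probes whose name begins with one of these prefixes. The array carried 88 such probes for 82 genes among its 13443 probes. Of these, 54 probes for 50 genes were measured in 3 or more mice of each group and could be tested, among 8319 probes tested in all. The tested probes were 33 of 47 for Mrpl, 11 of 22 for Mrps, 6 of 13 for Timm and 4 of 6 for Tomm. The other 34 probes are counted but not tested, and 4 of them had no value in any mouse. The prefixes also take in a few genes with other roles, such as Timmdc1, an assembly factor of respiratory complex I, and Tomm34, a co-chaperone found in the cytosol.

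The RNA came from splenocytes of DBA/2 mice, an inbred strain. There were 4 conditions, namely 5 untreated mice, 4 mice on day 1, 5 mice on day 2 and 5 mice on day 5 after an intraperitoneal injection of cyclophosphamide, 83 mg/kg. The drug alkylates DNA and is toxic to dividing cells. The series text states 5 mice per condition, independently harvested, and 4 day 1 mice were analysed here. Each mouse had 2 technical columns, which the series text places on one array, and they were averaged. Every value is read as a log2 ratio of spleen RNA (Cy5) over 1 common pool of untreated bone marrow cells (Cy3), so a level of 0 equals the pool. The labels give the dyes, while neither the direction of the ratio nor the base of the log is given in the sources used here. Cy5 over Cy3 is the likely direction, on the basis of B cell and granule marker levels in untreated mice, and the other direction would turn the sign of every level and difference. A difference between groups does not depend on the pool.

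Mitochondria keep a small genome that encodes a few subunits of the respiratory chain and ATP synthase, and the mitochondrial ribosome translates these messages. All of its proteins are encoded in the nucleus, made in the cytosol and imported. The outer membrane complex TOM receives nearly all precursors, and the inner membrane complexes TIM23 and TIM22 pass them to the matrix or into the inner membrane, helped by small chaperones between the membranes. In lymphoid tissue, demand for this machinery is known to rise when lymphocytes are activated and divide.

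Array columns held between 5829 and 10407 values. The 2 columns of a mouse correlated between 0.58 and 0.96 over probes, and in 3 mice (untreated mice 2 and 4, day 5 mouse 5) the correlation was below 0.7. In untreated spleen the B cell markers averaged 0.71 and the neutrophil and early granule markers averaged -2.08, the order that spleen over marrow would give. Markers of dividing cells averaged -2.33 on day 2, against -0.51 in untreated mice, and 5 of 8 fell. Those of red cell precursors averaged -2.15 on day 2 and -0.31 in untreated mice, and 8 of 12 probes fell. The averages cover only probes with a value in every mouse, 5 for dividing cells and 7 for red cell precursors. By the median over each list's measured probes in a mouse, day 2 gave -2.16 and -1.22. Untreated mice gave -0.38 and -0.11 by that measure. Of 5 macrophage probes 2 rose, and none of the 5 B cell, 4 T cell and 4 plasma cell probes passed the threshold on day 2 (limma; 4 had an unadjusted p below 0.05). Over all probes 8.31% passed on day 2, so the absence of calls among these few lymphoid probes lies near that share. An unadjusted p below 0.05 was found in 1739 of all 8319 probes on that day. In bulk spleen RNA, fewer cells of a type and less RNA per cell cannot be told apart.

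Among the mitochondrial ribosome and import genes, Mrps11 and Mrpl21 passed the test in at least 1 comparison. On day 1, 0 of the 54 probes passed the threshold (adjusted p below 0.05, limma with Benjamini-Hochberg adjustment over all 8319 probes). Over all probes 2.33% did, so that a count of 0 lies near that share. Of the 54, 6 had an unadjusted p below 0.05, beside 1099 of all 8319 probes. On day 2, 1 of the 54 changed, the small subunit gene Mrps11, which fell, where 8.31% of all probes changed. An unadjusted p below 0.05 was found in 5 of the 54, beside 1739 of all 8319 probes. On day 5 none passed against untreated mice, where 0.0721% of all probes did. Of the 54, 3 had an unadjusted p below 0.05, beside 434 of all 8319 probes. Day 2 against day 1 gave none either, where 0.0601% of all probes passed. There 1 of the 54 had an unadjusted p below 0.05, beside 501 of all 8319 probes. On day 5 against day 2, 2 of the 54 changed, with Mrps11 higher and the large subunit gene Mrpl21 lower, where 5.3% of all probes changed. An unadjusted p below 0.05 was found in 5 of the 54, beside 1526 of all 8319 probes. An F-test over the 4 conditions passed for 1 of the 54, Mrps11 (F = 12.1, adjusted p = 0.00396), where 6.01% of all probes passed.

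The differences lay on both sides of 0. On day 2 the 54 differences had a median of -0.01, beside 0.01 over all probes, with 26 above 0 and 28 below, and they ran from -0.76 for Mrps11 to 0.45 for Mrpl21. This median depended on the mice used: it was -0.09 without untreated mouse 2, -0.09 without untreated mouse 3, 0.04 without untreated mouse 5 and -0.11 without the 3 mice whose columns correlated below 0.7. The median size of the 54 differences was 0.20, beside 0.19 over all probes. Differences larger than 0.5 in size were found in 3 of the 54 probes (5.56%), beside 13.9% of all probes. The 95% interval of the day 2 difference lay wholly within a 2-fold change in either direction for 50 of the 54 (92.6%), beside 87.0% of all probes. The medians were -0.01 on day 1 and 0.01 on day 5 against untreated mice, beside 0.02 and 0.01 over all probes.

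**Figure D1:**
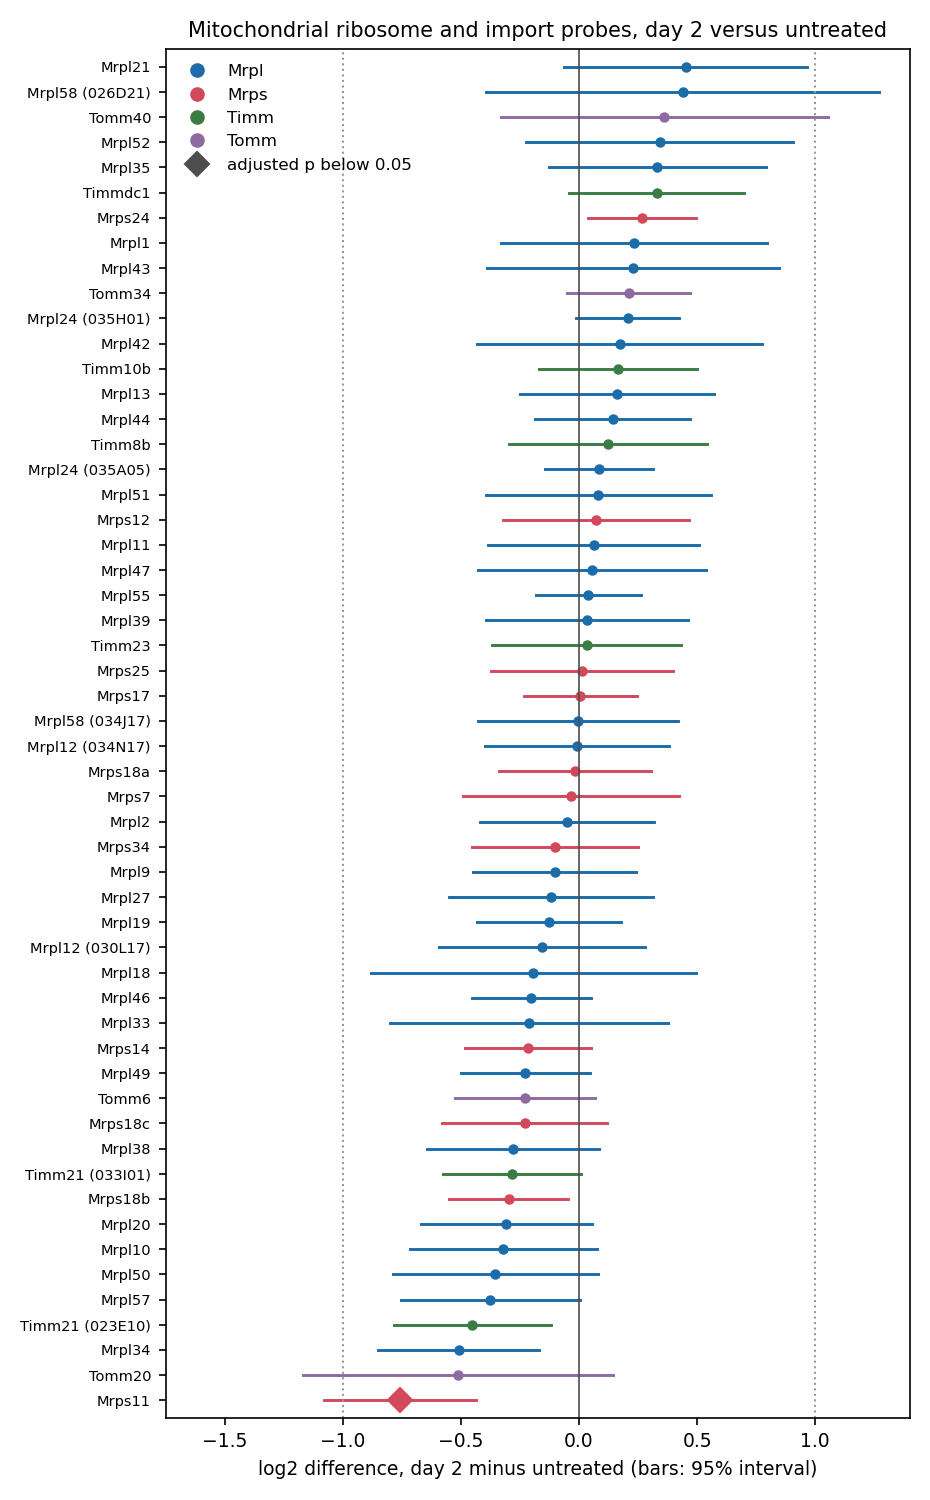
Log2 difference of day 2 minus untreated for each of the 54 tested probes (points) with its 95% interval (bars), ordered by size and coloured by prefix; the diamond marks the probe past the threshold and dotted lines mark a 2-fold change. Mrps11 at -0.76 stands at the low end, and the points spread about evenly around 0.

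**Figure D2:**
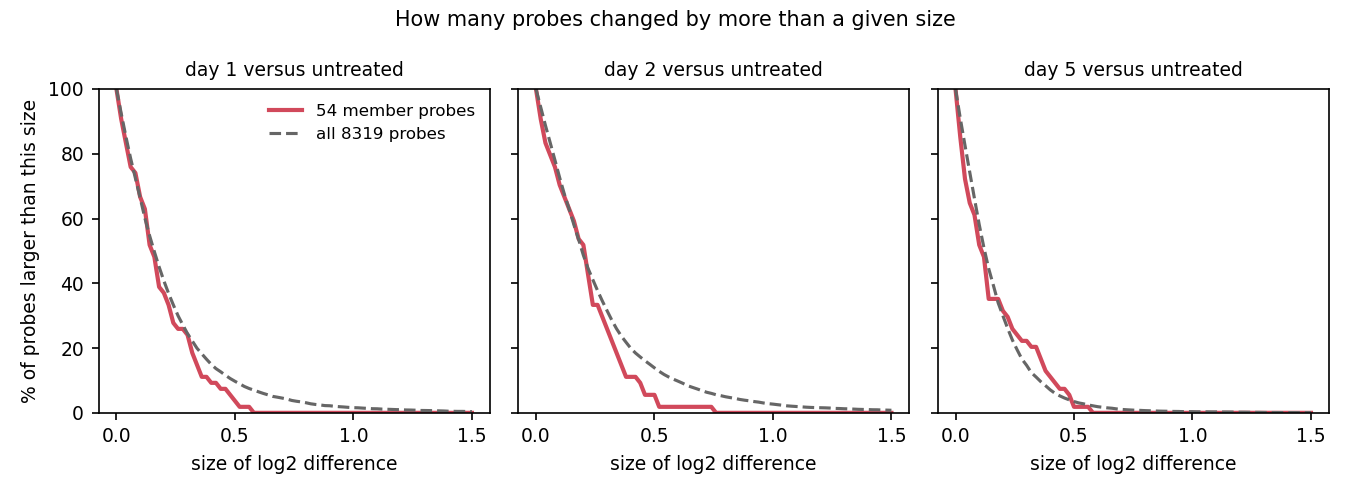
Percentage of probes (vertical axis) whose log2 difference from untreated mice exceeds a given size (horizontal axis), for the 54 mitochondrial ribosome and import probes (solid) and all 8319 probes (dashed) on days 1, 2 and 5. On day 2 the curves run together up to about the median size and 5.56% of the 54 exceed 0.5, beside 13.9% of all probes. On day 5, 22.2% of the 54 exceed 0.3, beside 14.7% of all probes, and 1.85% exceed 0.5, beside 3.49%.

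The day 1 medians were -0.01 for the 33 Mrpl probes, -0.12 for the 11 Mrps probes, 0.05 for the 6 Timm probes and 0.16 for the 4 Tomm probes. The day 2 medians were -0.01 for Mrpl, -0.03 for Mrps, 0.08 for Timm and -0.01 for Tomm. On day 5 against day 2 they were 0.04 for Mrpl, 0.04 for Mrps, 0.02 for Timm and 0.23 for Tomm. The differences between the families were not tested. Apart from Mrps11 and Mrpl21, no probe of any family passed the threshold in any of the comparisons.

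Averaged over the 34 probes with a value in every mouse, the level was 0.17 ± 0.24 in untreated mice, 0.13 ± 0.08 on day 1, 0.09 ± 0.06 on day 2 and 0.19 ± 0.14 on day 5 (SD over 5, 4, 5 and 5 mice). The untreated mice spread most, with 0.33, -0.09, -0.08, 0.25 and 0.43 in mice 1 to 5, and this range covers the means of every mouse in the treated groups. Untreated mouse 2 is also one of the 3 mice whose columns correlated below 0.7.

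**Figure D3:**
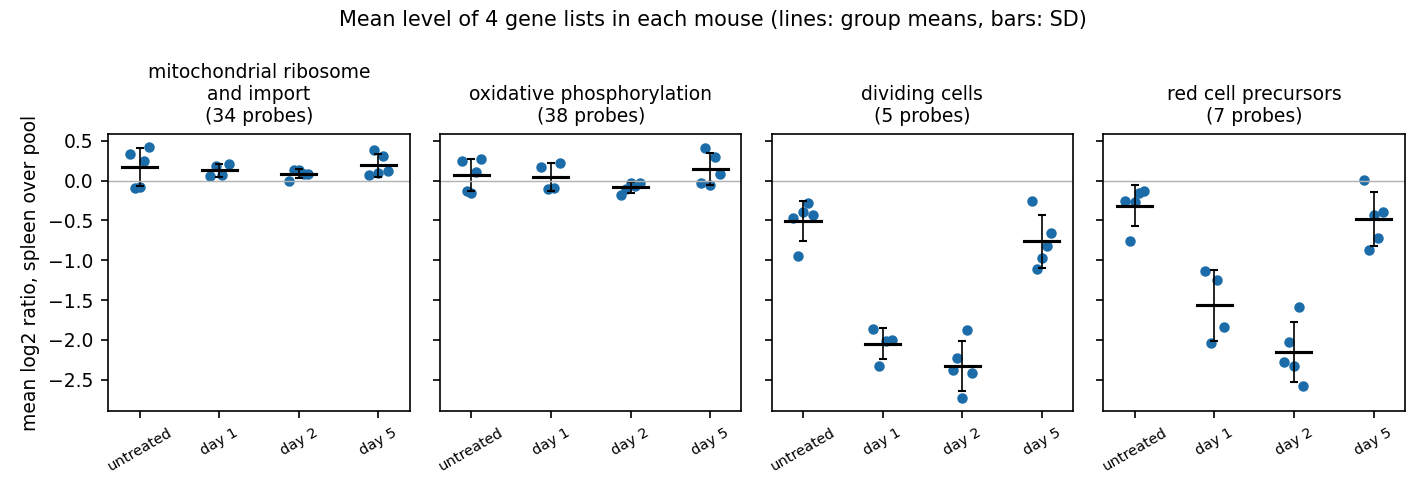
Mean log2 ratio of spleen over the marrow pool in each mouse (points), with group means (lines) and SD (bars), for 4 gene lists in untreated mice and on days 1, 2 and 5; only probes with a value in every mouse enter. The mitochondrial ribosome and import list stays between -0.09 and 0.43 in all mice, while the dividing cell list is at -2.33 on day 2 and -0.51 in untreated mice.

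Mrps11 encodes a protein of the small subunit's platform. Its log2 ratio was 0.43, 0.34, 0.20, 0.42 and 0.14 in the untreated mice. On day 1 it was -0.14, -0.60, -0.22 and -0.07. On day 2 it was 0.02, -0.69, -0.19, -0.79 and -0.63. All day 1 and day 2 mice lay below all untreated mice. On day 5 it was 0.35, 0.52, 0.22, 0.28 and 0.04, overlapping the untreated range. The day 2 mean was -0.45 ± 0.35 (SD, n = 5) against 0.31 ± 0.13 (SD, n = 5) in untreated mice, a log2 difference of -0.76 with a standard error of 0.15 (limma, adjusted p = 0.00336). The day 1 difference from untreated mice was -0.57 with a standard error of 0.16 and did not pass (adjusted p = 0.0728). From day 5 against day 2 the difference was 0.74 with a standard error of 0.15 (adjusted p = 0.00586). The day 5 difference from untreated mice was -0.02, with a 95% interval from -0.34 to 0.30. In the same mice the mean of the dividing cell markers lay between -2.73 and -1.87 on day 2, against -0.94 to -0.28 in untreated mice. That of the red cell precursor markers lay between -2.57 and -1.58, against -0.75 to -0.14. In day 2 mice 1 to 5 the dividing cell means were -2.38, -2.23, -2.73, -1.87 and -2.42. The red cell precursor means were -2.27, -2.02, -2.32, -1.58 and -2.57. Mouse 4, with the lowest Mrps11 of these mice, had the highest of both means. Both means cover only the probes with a value in every mouse. On day 1 these means were -2.05 and -1.57, and 5 of 8 and 4 of 12 probes fell. Their part in the Mrps11 difference was not tested.

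Mrps11 shares its promoter region with another member, Mrpl46, a large subunit gene transcribed in the opposite direction. Their annotated starts lie 42 bases apart on chromosome 7 of GRCm38.p6, Mrps11 on the plus strand at 78783131 and Mrpl46 on the minus strand at 78783089. This is the only pair of 2 members among the head-to-head neighbours found here. The RefSeq window of Mrps11, from 250 bases before to 50 bases after its start (chr7:78782881-78783180, plus strand), is shown because it holds both starts. Its capitals mark a match to AAGATGGCG, the motif of the factor YY1, on the opposite strand, with its first base in this window 108 bases before the Mrps11 start and its nearer end 58 bases past the Mrpl46 start, inside the Mrpl46 transcript.
Mrps11: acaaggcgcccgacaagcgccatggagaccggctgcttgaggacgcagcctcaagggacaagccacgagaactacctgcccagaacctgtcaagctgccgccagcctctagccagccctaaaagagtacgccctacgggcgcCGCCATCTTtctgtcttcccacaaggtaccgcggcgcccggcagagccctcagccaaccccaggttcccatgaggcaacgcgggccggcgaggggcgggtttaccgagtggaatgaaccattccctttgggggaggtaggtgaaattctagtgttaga

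Mrpl46 had log2 ratios of 0.55, 0.65, 0.27, 0.50 and 0.75 in the untreated mice. They were 0.11, 0.38, 0.13 and 0.33 on day 1, then 0.42, 0.46, 0.37, 0.36 and 0.08 on day 2, and 0.37, 0.41, 0.13, 0.44 and 0.10 on day 5. All treated mice lay below 4 of the 5 untreated mice, and each treated group spanned the level of the remaining one. The difference was -0.30 on day 1 (standard error 0.13, adjusted p = 0.287), -0.20 on day 2 (95% interval from -0.45 to 0.05) and -0.25 on day 5 (95% interval from -0.50 to 0.00). Mrpl46 on day 5 against day 2 differed by -0.05 (95% interval from -0.30 to 0.20), whereas Mrps11 had 0.74 in the same comparison. The difference between these 2 genes was not tested.

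**Figure D4:**
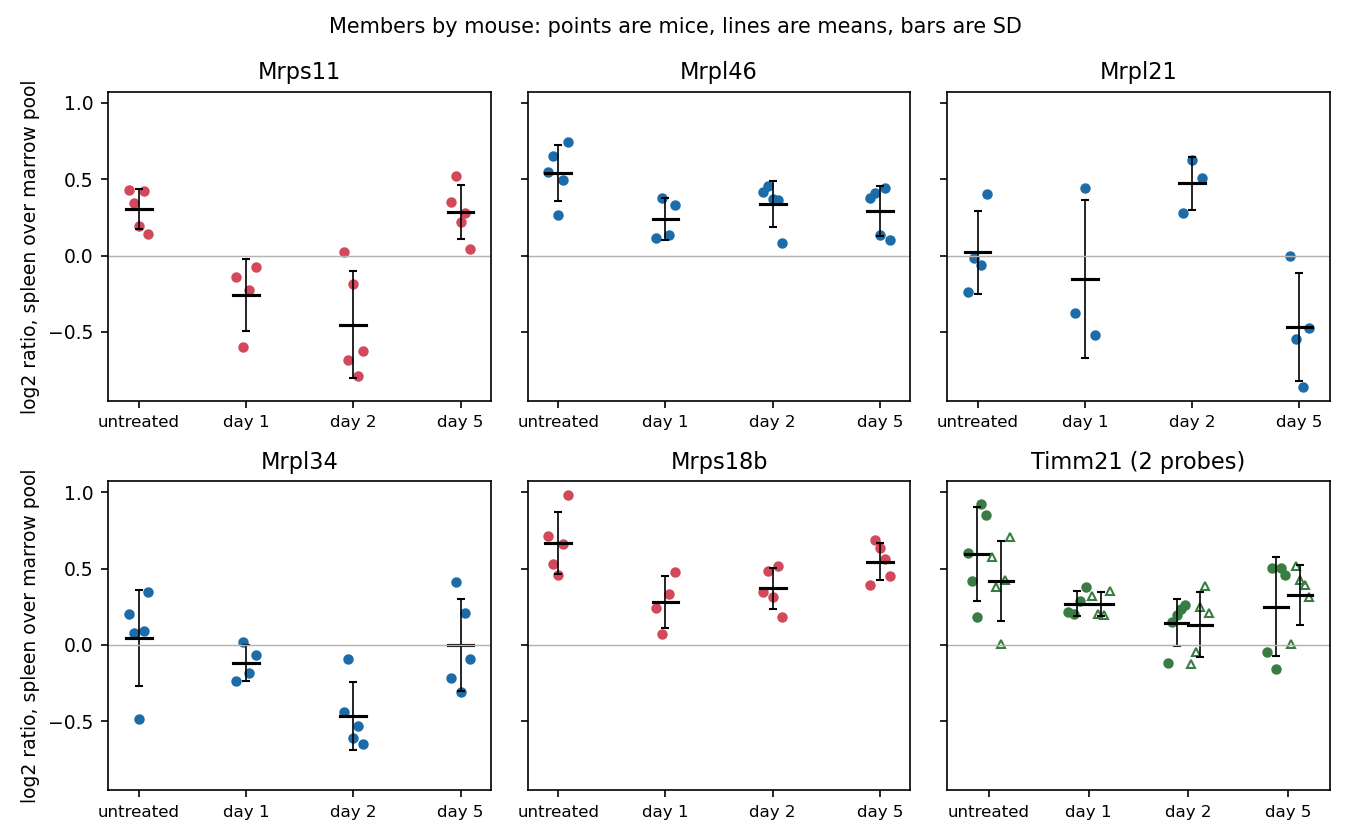
Log2 ratio of spleen over the marrow pool in every mouse (points) with group means (lines) and SD (bars) for 6 genes in untreated mice and on days 1, 2 and 5; the 2 probes of Timm21 are drawn side by side with filled circles and open triangles. Mrps11 lies between -0.79 and 0.02 on day 2 and between 0.14 and 0.43 in untreated mice.

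Mrpl21 encodes a large subunit protein with a bacterial counterpart, and it was measured in fewer mice. It had values of -0.24, -0.01, -0.06 and 0.40 in 4 untreated mice, and -0.38, 0.44 and -0.52 in 3 mice on day 1. On day 2 the values were 0.28, 0.63 and 0.51 in 3 mice, and on day 5 they were 0.00, -0.54, -0.86 and -0.48 in 4 mice. The day 5 and day 2 mice did not overlap, while each of these groups overlapped the day 1 mice. On day 5 Mrpl21 averaged -0.47 ± 0.35 (SD, n = 4) against 0.47 ± 0.18 (SD, n = 3) on day 2, a log2 difference of -0.94 with a standard error of 0.24 (limma, adjusted p = 0.0332). The other comparisons of Mrpl21 did not pass: it differed by 0.45 on day 2 (95% interval from -0.07 to 0.97) and by -0.49 on day 5 (95% interval from -0.97 to -0.01) from untreated mice. The day 5 call rests on single mice: leaving out day 2 mouse 2 gave -0.86 (adjusted p = 0.107), day 2 mouse 4 gave -0.93 (0.0782), day 5 mouse 2 gave -0.92 (0.0711), day 5 mouse 4 gave -0.81 (0.0884) and day 5 mouse 5 gave -0.94 (0.0694). It was also lost under quantile normalization (-0.97, adjusted p = 0.0817), with arrays at equal spread (-0.84, 0.0974) and with technical column 1 alone (-0.79, 0.178).

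The RefSeq window around the Mrpl21 start (chr19:3282792-3283091 of GRCm38.p6, plus strand) is given for comparison with that of Mrps11. The capitals mark a match to CCGGAAG, the core motif of ETS factors such as GABPA, on the opposite strand, with its first base at position 8 counted from 1 at the start site.
Mrpl21: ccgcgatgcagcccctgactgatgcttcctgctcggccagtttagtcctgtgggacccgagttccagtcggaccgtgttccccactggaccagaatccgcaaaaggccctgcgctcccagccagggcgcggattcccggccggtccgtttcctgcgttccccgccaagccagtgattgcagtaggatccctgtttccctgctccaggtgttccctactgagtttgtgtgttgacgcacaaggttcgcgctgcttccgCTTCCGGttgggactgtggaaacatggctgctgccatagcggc

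Among the other large subunit genes, Mrpl34 came nearest to the threshold on day 2. It had -0.44, -0.09, -0.61, -0.53 and -0.65 in the day 2 mice, against 0.20, 0.07, -0.49, 0.09 and 0.34 in the untreated mice. Untreated mouse 3 lay among the day 2 mice, and the other untreated mice lay above all of them. The log2 difference was -0.51 with a standard error of 0.16 (limma, adjusted p = 0.0608), and without untreated mouse 3 it was -0.64 (adjusted p = 0.0131). Mrpl20, a protein that binds the large ribosomal RNA, averaged -0.17 ± 0.26 on day 1 (SD, n = 4) against 0.35 ± 0.28 in untreated mice (SD, n = 5), and the difference of -0.52 did not pass (adjusted p = 0.136).

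Of the small subunit genes other than Mrps11, Mrps18b is one of the 3 mitochondrial relatives of a bacterial protein, with Mrps18a and Mrps18c. It had 0.24, 0.07, 0.33 and 0.48 on day 1 against 0.71, 0.53, 0.46, 0.66 and 0.98 in untreated mice, with 1 day 1 mouse inside the untreated range. Its difference from untreated mice was -0.39 on day 1 (standard error 0.13, adjusted p = 0.131) and -0.30 on day 2 (adjusted p = 0.153). Mrps18a and Mrps18c differed by -0.02 and -0.23 on day 2. Mrps24, at the entry of the messenger RNA, averaged 0.44 ± 0.16 on day 2 against 0.17 ± 0.14 in untreated mice (SD, n = 5 each), a difference of 0.27 that did not pass (adjusted p = 0.156).

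None of the 10 import probes passed the threshold in any comparison (limma), and 1 had an unadjusted p below 0.05 on each of days 1, 2 and 5. On day 2 8.31% of all probes passed, so a count of 0 among 10 lies near the share over all probes. Of all 8319 probes, 1099, 1739 and 434 had an unadjusted p below 0.05 on days 1, 2 and 5. Timm21, a TIM23 subunit that faces the outer membrane machinery, was measured by 2 probes. Probe 023E10 had -0.12, 0.15, 0.19, 0.23 and 0.26 in day 2 mice against 0.60, 0.42, 0.18, 0.92 and 0.85 in untreated mice, with untreated mouse 3 inside the day 2 range. Its difference was -0.45 with a standard error of 0.16 (limma, adjusted p = 0.0893), and that of probe 033I01 was -0.28 with a standard error of 0.14 (adjusted p = 0.252). Probe 023E10 passed without untreated mouse 3 (-0.55, limma, adjusted p = 0.0353) and with both columns and the mouse as a random effect (-0.45, adjusted p = 0.0371). Timm23, the channel of the inner membrane complex, differed by 0.03 on day 2 (95% interval from -0.37 to 0.43), and the small chaperone genes Timm8b and Timm10b by 0.12 and 0.17.

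In the outer membrane, Tomm20, the receptor for presequences, averaged 0.12 ± 0.96 on day 2 against 0.64 ± 0.29 in untreated mice (SD, n = 5 each). The wide day 2 spread came from mouse 1 at -1.59, whereas the other day 2 mice lay between 0.49 and 0.65. The day 2 difference of Tomm20 was -0.51 with all mice and -0.08 without that mouse. Tomm40, the pore, differed by 0.36 on day 2 with all mice and by -0.14 without untreated mouse 2, which was at -2.32. Tomm34 averaged 0.53 ± 0.15 on day 1 (SD, n = 4) against 0.24 ± 0.25 in untreated mice (SD, n = 5), and the difference of 0.29 did not pass (limma, adjusted p = 0.338). Tomm6, a small subunit of TOM, had the only level below the marrow pool in every untreated mouse, from -0.81 to -0.30, and averaged -0.76 ± 0.10 on day 2 against -0.53 ± 0.19 in untreated mice (SD, n = 5 each).

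Mrpl12, Mrpl24, Mrpl58 and Timm21 each had 2 tested probes. For Mrpl12, the stalk protein that contacts translation factors, probe 030L17 differed by -0.48 and probe 034N17 by 0.05 on day 1 from untreated mice, and neither passed (adjusted p = 0.339 and 0.965). For Mrpl24, a protein near the exit tunnel, the day 2 differences were 0.21 and 0.08. For Mrpl58, which releases peptides from stalled ribosomes, probe 026D21 gave 0.44 and probe 034J17 gave -0.01 on day 2. The first of these became -0.16 without untreated mouse 2, which was at -2.65 by probe 026D21 and at -0.01 by probe 034J17.

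In untreated spleen relative to the marrow pool, the 54 probes had a median level of 0.12, beside -0.03 over all probes. In 15 of them (27.8%) every measured untreated mouse was above 0, beside 12.1% of all probes, and in 1 (1.85%) every mouse was below 0, beside 16.8% of all probes. The median over probes in each untreated mouse averaged 0.15 for this list and -0.02 for all probes. It averaged 0.14 for oxidative phosphorylation probes and 0.24 for cytosolic ribosomal protein probes, so these lists also lay above all probes. The differences between lists were not tested. The mean level was 0.67 ± 0.20 for Mrps18b, 0.64 ± 0.29 for Tomm20 and 0.60 ± 0.26 for Mrpl9, a large subunit gene (SD, n = 5 each). Each of these ratios is of spleen to marrow for its own probe, so levels are not compared between genes.

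Related mitochondrial genes were taken from 7 lists: ribosome subunits without the prefix, translation factors, tRNA synthetases, ribosome assembly factors, import partners and processing enzymes, DNA copying and transcription, and nuclear regulators. None of their 38 probes passed the threshold in any comparison (limma), where 8.31% of all probes passed on day 2. On that day 3 of the 38 had an unadjusted p below 0.05, beside 1739 of all 8319 probes. On day 2 the list medians ran from -0.14 for the 8 tRNA synthetase probes to 0.37 for the 3 translation factor probes. The translation factor probes were those of Mtif3, an initiation factor, with a day 2 difference of 0.37 (limma, adjusted p = 0.159), Mtfmt, which formylates the initiator tRNA, with 0.45 (adjusted p = 0.256), and Lrpprc, which stabilises mitochondrial messages, with 0.34 (adjusted p = 0.349). Among 12 import partner probes, the import motor co-chaperone Grpel1 differed by -0.27 on day 2 (adjusted p = 0.273).

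The oxidative phosphorylation genes were also chosen by symbol prefix and had 47 tested probes. The subunits that the mitochondrial ribosome itself makes are not among them. On day 2, 1 of the 47 fell, Uqcr11 of complex III, with a log2 difference of -1.02 (standard error 0.24, limma, adjusted p = 0.0105). On day 5 against day 2, 2 of the 47 were higher, Uqcr11 by 0.87 (adjusted p = 0.0368) and Cox4i1 of complex IV by 0.54 (adjusted p = 0.0385). Their day 2 median was -0.13, beside -0.01 for the mitochondrial ribosome and import probes. Of the 34 cytosolic ribosomal protein probes, none passed on days 1 or 2 or on day 5 against day 2 (limma; 1 had an unadjusted p below 0.05 on day 2), and their day 2 median was -0.01. Over all probes, 2.33% passed on day 1, 8.31% on day 2 and 5.3% on day 5 against day 2. On day 2, 1739 of all 8319 probes had an unadjusted p below 0.05. The counts given for both lists lie near or below these shares. The difference between these lists was not tested.

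Promoter windows of RefSeq were found for 73 of the 82 genes on the array. Matches on either strand were sought for GCGCATGC (the factor NRF1), CCGGAAG (ETS factors) and AAGATGGCG (YY1), factors known from human cells to act on many nuclear genes for mitochondrial proteins. The NRF1 motif was present in any window of 8 of the 73 genes (10.96%), beside 3.05% of 27025 genes. The latter are all genes with a RefSeq window, whether or not they were measured here. The ETS motif was present in 27 (37.0%), beside 9.93%, and the YY1 motif in 5 (6.85%), beside 1.64%. At least 1 motif was present in 36 (49.3%), beside 13.6%. The 5 genes with a YY1 match were Mrpl35, Mrpl42, Mrps11, Mrps18a and Mrps24, with day 2 differences of 0.33, 0.17, -0.76, -0.02 and 0.27. The 27 probes of tested genes with a match had a day 2 median of 0.03, and the 21 without one had -0.01. A match is a stretch of letters in the window and is no measure of binding.

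A start on the other strand within 1000 bases was annotated for 28 of the 73 genes (38.4%), beside 15.8% of all genes in the table. Both neighbours were tested in 7 such pairs. On day 2 the member and its neighbour differed from untreated mice by -0.05 for Mrpl2 and 0.56 for Klc4, a kinesin light chain, whose adjusted p was 0.0486. They differed by 0.45 for Mrpl21 and 0.32 for Ighmbp2, a helicase, and by 0.12 for Timm8b and -0.34 for Sdhd, a subunit of complex II. The remaining pairs were Mrpl47 with 0.06 and Ndufb5 of complex I with -0.32, Mrps12 with 0.07 and the mitochondrial tRNA synthetase gene Sars2 with -0.04, and Timm10b with 0.17 and Arfip2 with 0.20. Of the genes in these pairs, Mrps11 and Klc4 passed the threshold on day 2, and their neighbours did not.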

How the data were processed

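The authors deposited 1 table of log2 ratios, 1 column per sample, for 38 columns from 19 mice. Per the labels' protocols, splenocyte RNA (Qiagen RNeasy Midi) was amplified to aRNA (Ambion MessageAmp II) and carried Cy5, and the marrow pool carried Cy3 on every array. The label of the pool's treatment names cyclophosphamide while its description says untreated; the pool is the same for all samples. The sources used here do not give the background correction, normalization, software, base of the log or direction of the ratio; base 2 and Cy5 over Cy3 were assumed, and the deposited values lie within ±6 with column medians near 0. No spot intensities were used.

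The 2 columns of each mouse were averaged, and probes measured in 3 or more mice of each group were fitted with limma 3.58.1 (R 4.3.3; lmFit, eBayes, 4 groups sharing 1 spread). Tests were two-sided with Benjamini-Hochberg adjustment over 8319 probes at 0.05. The number of arrays limits the precision. On simulated data with 8319 probes, the day 2 against untreated fit found 79 of 100 changes of 2-fold and 100 of 100 of 4-fold. Of its 194 calls 15 were false. The simulated noise was normal and independent between probes, and no change below 2-fold was simulated. Single mice standing apart, as found in the data, were not modelled. Symbols came from the platform's probe-to-gene table, which can be old; all 88 members matched RefSeq by gene ID. The members and lists were chosen with earlier results of these data known. Genes with values are those past the threshold, the 3 per prefix with the smallest F-test p, and genes with 2 probes; Mrpl46, Tomm40, Mrpl9, the Mrps18 relatives and the other genes named were added after their values were seen. Alternatives covered scaling, technical columns, the filter, a replicate block, the samples fitted, averaging of probes and leaving out mice. Same-numbered mice of different groups did not deviate together (27 pairs, mean correlation 0.00199, from -0.25 to 0.35), so mice were not treated as paired.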

Additional observations from a re-analysis of the deposited data

Results flagged for a closer look

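By chance about 1 in 20 groups would hold a mouse that stands apart. Single mice stood apart from the rest of their group in 12 of the 206 groups of 4 or 5 mice examined, near that share. Of these, 5 were untreated mouse 2, which is among the 3 mice with low agreement between their columns: Mrpl58 probe 026D21 at -2.65, Tomm40 at -2.32, Mrpl42 at -1.19, Mrpl39 at -1.05 and Mrpl38 at -0.51. Both columns were low for Mrpl58 (-2.75 and -2.54), Tomm40 (-2.46 and -2.18) and Mrpl39 (-0.79 and -1.31). For Mrpl42 and Mrpl38 only the second column was (-2.69 and -1.11, beside 0.32 and 0.09 in the first). Untreated mouse 3 was at -1.92 for Mrpl18. Untreated mouse 4, also among the 3 mice with low agreement, was at -0.81 for Mrps25 and at -0.15 for Mrps34, the last from 1 column. Among treated mice, Timm23 was at 0.41 in day 1 mouse 1, Tomm20 at -1.59 and Mrpl46 at 0.081 in day 2 mice 1 and 5, and Mrpl33 at -0.86 in day 5 mouse 1. Both columns of Tomm20 were low in that mouse (-1.78 and -1.40).

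By the test of that difference, the effect of treatment differed between day 5 and day 2 for 2 of the 54 probes. These were Mrps11 (0.74) and Mrpl21 (-0.94), where 5.3% of all probes passed. Under alternative settings Mrps11 passed in all 31 and Mrpl21 in 20 of 30.

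Of the 34 probes left untested, 4 (11.8%) had no value in any untreated mouse and values in at least 3 mice of a treated group, beside 4.14% of the 5124 untested probes of the array. Mrps5 had values in 4 mice on day 2. Mrpl23 had values in 3 mice on day 2 and in 3 on day 5, and Mrpl30 and Timm17b in 3 on day 5. Over all probes, values per mouse averaged 8649.8 in untreated mice, the fewest of the groups. They averaged 9262 on day 1, 9005 on day 2 and 9393 on day 5. The sources used here do not say what makes a value missing.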

How the results depend on the processing

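Mrps11 passed the threshold on day 2 and on day 5 against day 2 under all 31 settings in which it was fitted, with differences from -0.88 to -0.68 and from 0.65 to 0.86. No called difference reversed. The day 1 count of 0 became 2 under quantile normalization, and 2 with both columns and the mouse as a random effect (Mrps11 and Mrps18b each time). It became 1 with a value required in every mouse. Over all probes, day 1 gave 206 of 8319, 452 of 8319 and 268 of 5293 in these settings. The day 2 count of 1 became 2 under quantile normalization, 2 without a filter (Mrpl28 added), 2 with a value in every mouse and 3 with the random effect. The day 5 against day 2 count of 2 became 1 (Mrpl21 lost or not measured) under quantile normalization, equal spread of the arrays, technical column 1 alone, a value in every mouse, and without the 3 mice of low technical correlation, and 3 with the random effect (Mrpl34 added, 0.47, adjusted p = 0.0130). Over all probes, day 5 against day 2 gave 359 of 8318 with technical column 1 alone. It gave 509 of 5293 with a value in every mouse and 339 of 8319 without the 3 mice. The F-test count of 1 became 3 with the random effect. With mouse number as a replicate block, the counts were 2 on day 2 (Mrpl34 added) and 1 on day 5 against day 2. Over all 8319 probes they were 603 and 383. The mouse numbers do not pair the mice. Leaving out 1 mouse at a time gave 0 to 1 on day 1 and 1 to 3 on day 2. On day 5 against day 2 it gave 1 to 2, by the F-test 1 to 2, and in the other comparisons 0. Over all 8319 probes these fits gave 99 to 219 on day 1 and 503 to 683 on day 2. On day 5 against day 2 they gave 296 to 452. Mrpl21 was lost on day 5 against day 2 without day 2 mouse 2 or 4 or day 5 mouse 2, 4 or 5, and passed the F-test without day 1 mouse 3. Mrps11 passed on day 1 without day 2 mouse 1. Mrpl34 passed on day 2 without untreated mouse 3 (-0.64, adjusted p = 0.0131), day 2 mouse 2 or day 5 mouse 2, and Timm21 without untreated mouse 3. With the random effect, Mrpl34 and Timm21 joined Mrps11 on day 2. Over all probes, the day 2 count of 691 became 338 under quantile normalization, 353 with equal spread, 449 with only the groups compared and 409 without the 3 mice, and the day 5 against day 2 count of 441 became 83, 144 and, with the random effect, 730. The day 1 count of 194 became 452 with the random effect, 117 with equal spread and 113 without the 3 mice; without day 1 mouse 2 or 4 it was 99 and 109. The cause was not tested. No scaling moved the median of all probes by over 0.1.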
